A study of Mus musculus with 8 samples.

Results

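Transcripts of 35 genes of DNA repair and of the DNA damage checkpoint were examined in mouse lenses at embryonic day 15.5 (E15.5). The genes were taken by name from 6 pathways, and every probe set that the platform annotation assigns to 1 of them alone was kept. They held 64 of the 22626 probe sets that are not array controls, and 35 of the 12393 genes with a probe set of their own. Lens samples of dnBrg1 embryos (n = 4) were compared with those of wild type embryos (n = 4), with whole lens RNA on 1 Affymetrix array per sample, and whether a sample pooled lenses of several embryos was not stated in the sources read. dnBrg1 is a form of Brg1, the ATPase of SWI/SNF chromatin remodeling complexes, with a point mutation in its ATP-binding motif. The transgene is driven by the αA-crystallin promoter, which is active in fiber cells that have stopped dividing, on top of the endogenous Brg1 gene. The study reports similar lens abnormalities in each founder it obtained, and then used a single heterozygous founder line with wild type littermates as controls. In these RNA levels, effects of the insertion site and of the transgene product cannot be told apart. The epithelium of these lenses lies outside the stated expression domain of the transgene, but its RNA is part of every sample.

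Nucleotide excision repair cuts out a short stretch of a damaged strand, whereas base excision repair removes a single altered base and then seals the nick. Mismatch repair corrects copying errors, and double-strand breaks are either rejoined directly by end joining or copied from a sister strand by homologous recombination. The kinases Atm and Atr sense breaks and stalled replication and pass the signal through Chek2 and Chek1 to halt the cell cycle. The lens holds a dividing epithelium and fiber cells that leave the cell cycle and later degrade their own nuclei.

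Across the 35 genes the levels moved in both directions, and no pathway moved as a whole. A gene was read on its own probe set, which is the one with the highest mean over the 8 samples. Compared with wild type, 6 genes were higher in dnBrg1 lenses (Ercc1, Ercc2, Xpa, Nbn, Blm and Atm), 9 were lower (Ercc4, Xpc, Fen1, Parp1, Pms2, Rad54l, Rpa1, Chek2 and Trp53bp1), and 20 did not pass the test. These are 17.1% and 25.7% of the genes, next to 17.5% higher and 23.3% lower among all 12393 genes, so the shares lie near the background of the array. Over the 64 probe sets, 12 were higher and 12 were lower, or 18.8% each, next to 19.8% and 21.0% of all probe sets. The groups did not overlap in 23 of the 64 probe sets (35.9%), next to 40.1% of all. The median log2 fold change of the 35 genes was -0.25, and that of all genes was -0.11. Log2 fold changes are of dnBrg1 relative to wild type and are given ± the standard error, with n = 4 samples in each group, and an adjusted p is from limma with Benjamini-Hochberg correction over all 22626 probe sets, called at 0.05. A rise or fall is relative to the other transcripts on the array, and fewer cells of a kind and less RNA per cell cannot be told apart in whole lenses.

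Several features of the whole series bear on every value here. The Gapdh and β-actin control probe sets give the difference between the 3' and the 5' end of a transcript, on the log2 scale, which grows as RNA is shortened or copied incompletely. This difference ranged from 1.43 to 2.66 in wild type, lowest in wild type 3, and from 0.592 to 0.649 in dnBrg1 samples, so it did not overlap between the groups. The sample descriptions name polysome-bound RNA for all wild type samples and for dnBrg1 1 and 2 and total RNA alone for dnBrg1 3 and 4, while all 8 are recorded as total RNA. Lens fiber markers were present throughout, with summed intensities of 102817 to 111144 in wild type and of 111238 to 121686 in dnBrg1 samples over 8 genes. Retinal markers (6 genes) summed to 7927 to 12610 in wild type and 4779.7 to 6829 in dnBrg1 samples, and macrophage markers (7 genes) to 3744 to 5090.2 and 1571 to 2974. Markers of periocular mesenchyme (6 genes) summed to 1603 to 4650 and 822 to 9709, and of skeletal muscle (6 genes) to 476 to 811 and 615 to 3607. These 2 sums were thus uneven among dnBrg1 samples. Those of lens epithelium (5 genes) were 23337 to 25467 and 22220 to 24948. Of the retinal genes 5 were lower and none was higher (median log2 fold change -0.85), while of the macrophage genes 3 were higher and 2 were lower (median log2 fold change 0.11), and the largest part of the macrophage sum was Csf1r, with mean log2 intensities of 11.86 in wild type and 9.73 in dnBrg1 samples. Of 17 genes of dividing cells, 5 were higher and 1 was lower (median log2 fold change 0.24). Their summed intensity was 28295 to 32925 in wild type and 30578 to 38611 in dnBrg1 samples. The higher and lower shares were 29.4% and 5.88% for dividing cells, 0 and 83.3% for retina and 42.9% and 28.6% for macrophages. Those of all genes were 17.5% and 23.3%. The part of these differences in the results below was not tested, apart from a fit with the control difference as a covariate, in which 2 of the 24 called probe sets of these genes stayed called (Atm and 1 of Apex1).

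The promoters of 6 genes whose groups did not overlap are printed to show what letters lie upstream. On their own probe sets Ercc2, Blm and Atm were higher and Ercc4, Pms2 and Chek2 lower. Ercc4 was called higher on its other probe set. The 6 do not stand for all called genes, since each holds CCAAT or its complement. The windows of Ercc1, Parp1, Fen1 and Trp53bp1, also called without overlap, hold neither. Each printed promoter is the 250 bases before the RefSeq start on the gene's own strand, in build GRCm38.p6. Capitals mark CCAAT or its complement ATTGG, and in Chek2 also GCGGGAAA, the complement of the E2F motif TTTCCCGC. Their positions are chr7:19381767-19382016 (plus strand) for Ercc2, chr7:80534999-80535248 (minus strand) for Blm, chr9:53536672-53536921 (minus strand) for Atm, chr16:13109486-13109735 (plus strand) for Ercc4, chr5:143909751-143910000 (plus strand) for Pms2 and chr5:110839733-110839982 (plus strand) for Chek2.
Ercc2: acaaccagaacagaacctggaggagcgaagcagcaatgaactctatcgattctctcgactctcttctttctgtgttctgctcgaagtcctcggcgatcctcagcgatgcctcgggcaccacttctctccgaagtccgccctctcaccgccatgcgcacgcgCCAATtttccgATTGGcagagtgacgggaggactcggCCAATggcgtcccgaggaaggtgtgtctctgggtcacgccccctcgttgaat
Blm: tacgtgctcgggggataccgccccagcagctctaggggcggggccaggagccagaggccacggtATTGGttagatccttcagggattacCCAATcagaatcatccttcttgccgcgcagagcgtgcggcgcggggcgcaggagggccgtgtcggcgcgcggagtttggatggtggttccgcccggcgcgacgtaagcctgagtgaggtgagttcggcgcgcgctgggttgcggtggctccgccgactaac
Atm: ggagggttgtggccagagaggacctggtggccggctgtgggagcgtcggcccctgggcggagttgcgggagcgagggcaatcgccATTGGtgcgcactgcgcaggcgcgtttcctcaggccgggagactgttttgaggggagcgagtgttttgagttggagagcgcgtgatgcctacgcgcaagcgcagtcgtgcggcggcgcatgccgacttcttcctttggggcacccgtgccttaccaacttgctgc
Ercc4: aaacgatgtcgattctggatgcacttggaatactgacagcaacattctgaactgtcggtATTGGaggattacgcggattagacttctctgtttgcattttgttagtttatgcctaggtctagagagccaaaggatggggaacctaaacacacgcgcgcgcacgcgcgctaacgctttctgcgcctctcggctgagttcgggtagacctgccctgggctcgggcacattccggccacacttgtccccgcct
Pms2: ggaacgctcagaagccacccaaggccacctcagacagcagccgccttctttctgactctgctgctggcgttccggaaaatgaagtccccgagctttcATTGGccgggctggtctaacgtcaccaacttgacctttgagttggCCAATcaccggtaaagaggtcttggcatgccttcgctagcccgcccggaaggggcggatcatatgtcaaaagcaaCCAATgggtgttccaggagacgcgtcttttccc
Chek2: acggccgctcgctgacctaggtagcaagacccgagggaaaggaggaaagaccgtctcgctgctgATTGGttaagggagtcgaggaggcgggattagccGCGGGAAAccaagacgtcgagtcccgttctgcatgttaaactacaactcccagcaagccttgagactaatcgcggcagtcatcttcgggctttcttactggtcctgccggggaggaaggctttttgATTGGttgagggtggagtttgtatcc

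Promoters of 28 of the 35 genes were used, as 32 windows, and the same motifs were searched on both strands in all 32851 RefSeq promoters of that length. Windows of the 35 genes on 1 chromosome were left out, a rule not applied to all promoters. A gene without a window here need not lack a RefSeq promoter. The windows of Rad54l overlap almost wholly, and both hold CCAAT and the GC box, so these matches were counted more than once. CCAAT, the motif of the NF-Y factor, was in 17 of the 32 windows (53.1%) and in 33.8% of all promoters. The GC box GGGCGG, the motif of Sp1, was in 18 windows (56.2%) and in 32.7% of all, and is not capitalised above. The E2F motifs TTTCGCGC, TTTGGCGC and TTTCCCGC were in 3 windows (9.38%; Xrcc6, Brca2 and Chek2) and in 1.53% of all, and the CRE motif TGACGTCA was in 1 window (3.12%; Brca2) and in 1.55%. The marked motifs did not overlap each other. CCAAT occurred on both sides of the comparison: 3 times in the promoter of Ercc2, which was higher, and 3 times in that of Pms2, which was lower. A match describes the letters of the window and says nothing of whether a factor binds there.

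Nucleotide excision repair had the most called genes of the 6 pathways, 3 higher, 2 lower and 2 not called of 7. These are 42.9% and 28.6% of a short list, next to 17.5% higher and 23.3% lower among all genes. Ercc4 (Xpf), the nuclease subunit that cuts the damaged strand together with Ercc1, read 8.68, 9.47, 8.53 and 9.21 in wild type 1 to 4 and 7.36, 7.35, 7.35 and 7.30 in dnBrg1 1 to 4 on probe set 1448984_at (log2 intensity). The dnBrg1 samples lay within a narrow band below every wild type sample, and wild type 3 and 1 were the lowest of their group. Ercc4 was 3.09-fold lower (log2 fold change -1.63 ± 0.20, adjusted p = 0.00021), the largest change on an own probe set among the 35 genes. Its partner Ercc1 read 9.89, 9.74, 9.90 and 10.03 in wild type and 10.40, 10.26, 10.47 and 10.37 in dnBrg1 samples on 1417328_at. All dnBrg1 samples were above all wild type samples, so the subunits of this nuclease differed in opposite directions on these probe sets (log2 fold change 0.48 ± 0.10, adjusted p = 0.0044 for Ercc1, 1.40-fold higher). The dimmer probe set of Ercc4 went the other way, as given further below.

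Xpc, which recognises distorted DNA and starts repair across the genome, read 9.08, 9.53, 8.45 and 9.13 in wild type and 7.94, 7.79, 8.16 and 8.08 in dnBrg1 samples (1422532_at). Wild type 3 was the lowest of its group but still above every dnBrg1 sample. Xpc was 2.08-fold lower (log2 fold change -1.05 ± 0.21, adjusted p = 0.0031). Xpa, which checks the opened damage site, read 7.93, 6.84, 7.97 and 7.90 in wild type and 8.66, 8.75, 8.79 and 8.71 in dnBrg1 samples (1460725_at). The dnBrg1 samples were above all of wild type, and wild type 2 stood below the other 3. Xpa was 2.09-fold higher (log2 fold change 1.07 ± 0.24, adjusted p = 0.0057), and without wild type 2 the log2 fold change was 0.79. Its dimmer probe sets were not called (log2 fold change -0.45 and 0.46). With the 3' to 5' control difference as a covariate neither was called and both changed sign (Xpc 0.11 and Xpa -0.17).

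Ercc2 (Xpd), a helicase of the transcription and repair factor TFIIH that opens DNA around the damage, read 6.74, 7.01, 6.91 and 6.96 in wild type and 7.35, 7.51, 7.39 and 7.32 in dnBrg1 samples (1460727_at). No dnBrg1 sample overlapped with wild type, and Ercc2 was 1.40-fold higher (log2 fold change 0.49 ± 0.10, adjusted p = 0.0042). Ercc1 and Ercc2 lie on the same chromosome with 2 protein-coding genes between them in the RefSeq order, and their differences were alike in size. Ercc3 (Xpb), the other helicase of TFIIH, had a log2 fold change of -0.34 ± 0.15 and was not called (adjusted p = 0.10). Without wild type 3 Ercc3 was called lower (log2 fold change -0.45, adjusted p = 0.022, within 0.022 to 0.55 over the alternatives). Ercc5 (Xpg), the other nuclease of the pathway, was not called (-0.18 ± 0.14, adjusted p = 0.31).

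**Figure D1:**
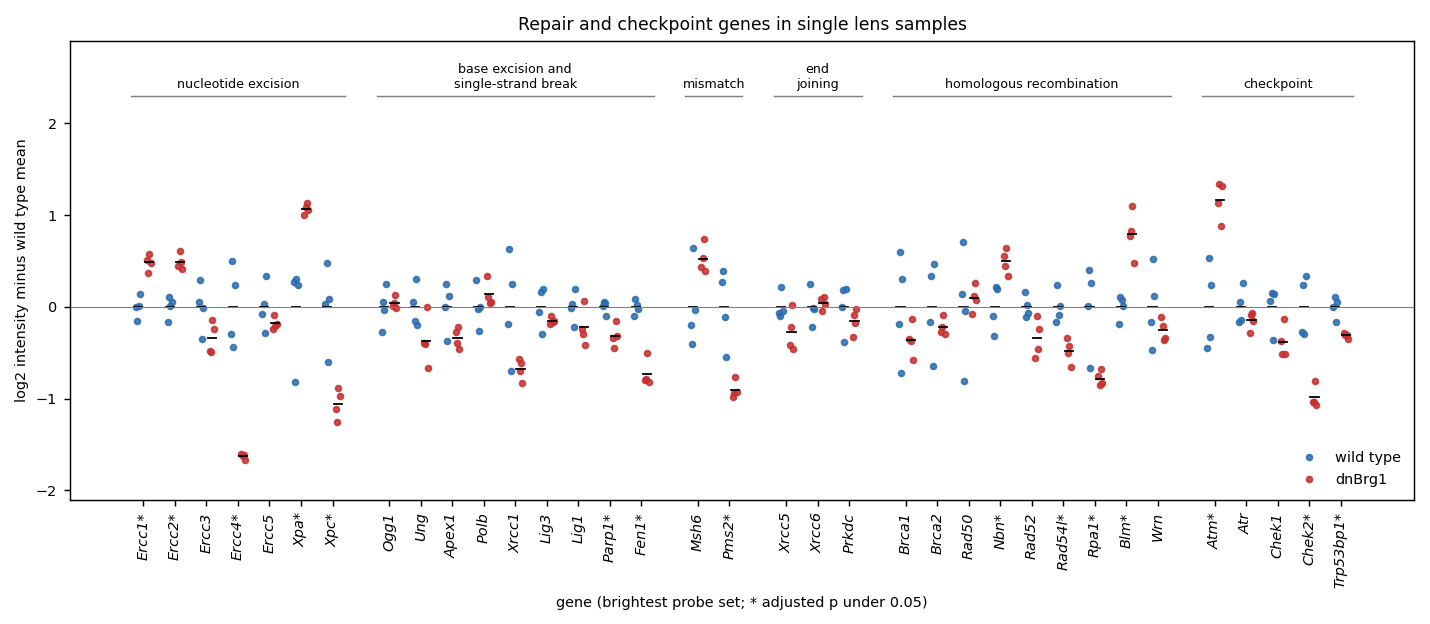
The log2 intensity of each of the 35 genes on its own (brightest) probe set, minus the wild type mean, for every wild type (blue) and dnBrg1 (red) sample, with group means as bars and an asterisk where the adjusted p is under 0.05. Genes above and below 0 stand side by side in each pathway with called genes, and the dnBrg1 points of Ercc4 lie close together at -1.63.

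The other genes of this pathway from a wider list of repair genes moved in both directions as well: 4 were higher, 4 lower and 4 not called of 12. The higher and the lower genes are 33.3% each, next to 17.5% and 23.3% of all genes. TFIIH was split between its subunits on their own probe sets, though a further probe set of Gtf2h4 was called higher. Cdk7 (0.95 ± 0.12) and its cyclin Ccnh (0.76 ± 0.12), the kinase part of TFIIH, and the core subunit Gtf2h1 (0.93 ± 0.14) rose, while the core subunits Gtf2h4 (-1.29 ± 0.14) and Gtf2h3 (-0.64 ± 0.18) fell. With Ercc2, Ercc3 and the kinase assembly factor Mnat1 (0.12 ± 0.13, adjusted p = 0.50), 4 of the 8 measured TFIIH subunits were higher, 2 were lower and 2 were not called. Gtf2h3 was not called without wild type 1, dnBrg1 1 or dnBrg1 2, where its adjusted p reached 0.054. Xab2, which binds Xpa, fell (-0.53 ± 0.15), and was not called without dnBrg1 4 (adjusted p = 0.051). A further probe set of Xab2 was called higher. Ddb1 (0.24), the partner in damage recognition of Ddb2 (-0.34), was not called. Ddb2 was called lower on its own probe set, where its groups overlapped, and higher on a further probe set without overlap (0.96 ± 0.16, adjusted p = 0.0012), so no single direction can be given for it.

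In base excision and single-strand break repair, Fen1 and Parp1 were lower on their own probe set, none of the 9 genes was higher and 7 were not called. The lower genes are 22.2%, next to 23.3% of all genes, of which 17.5% were higher. Fen1, the nuclease that trims the displaced flap before ligation and also processes Okazaki fragments, read 13.09, 13.28, 13.21 and 13.17 in wild type and 12.39, 12.40, 12.69 and 12.37 in dnBrg1 samples (1436454_x_at). All dnBrg1 samples were below wild type, and dnBrg1 3 was the sample nearest to wild type. Fen1 was 1.65-fold lower (log2 fold change -0.73 ± 0.11, adjusted p = 0.00064). Its dimmer probe set had a log2 fold change of 0.39 ± 0.17 and was not called (adjusted p = 0.094).

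Parp1, which binds nicks and marks them with poly(ADP-ribose), was called in both directions on its 3 probe sets. The brightest, 1435368_a_at, read 12.35, 12.39, 12.38 and 12.24 in wild type and 12.00, 11.89, 12.18 and 12.03 in dnBrg1 samples. Every dnBrg1 sample was below every wild type sample on it, by a small margin (log2 fold change -0.31 ± 0.10, adjusted p = 0.030, 1.24-fold lower). That call was lost when wild type 1, wild type 2, dnBrg1 1, dnBrg1 2 or dnBrg1 4 was left out (log2 fold change -0.27 to -0.32, adjusted p up to 0.083). On 1422503_s_at the levels were 9.04, 8.67, 9.00 and 8.22 in wild type and 9.76, 9.71, 9.91 and 9.53 in dnBrg1 samples. On 1422502_at they were 8.41, 7.96, 8.79 and 7.85 and 9.85, 9.80, 10.02 and 9.56. On both of these dimmer probe sets all dnBrg1 samples were above all wild type samples, and wild type 4 was the lowest sample. They were called higher, 1.99-fold (log2 fold change 0.99 ± 0.18, adjusted p = 0.0023) and 2.93-fold (log2 fold change 1.55 ± 0.21, adjusted p = 0.00036), so no single direction can be given for Parp1.

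Apex1 encodes the endonuclease that cuts the backbone after a damaged base is removed. Its brightest probe sets, 1437715_x_at and 1456079_x_at, were not called (-0.34 and -0.21), but without wild type 3 both were called lower (-0.46, adjusted p = 0.0095, within 0.0095 to 0.37 over the alternatives, and -0.36, adjusted p = 0.044, within 0.044 to 0.60). The dimmer 1416135_at read 10.66, 11.05, 10.27 and 10.92 in wild type and 11.84, 11.73, 11.95 and 11.76 in dnBrg1 samples. The groups on 1416135_at did not overlap, and it was 2.13-fold higher (log2 fold change 1.09 ± 0.16, adjusted p = 0.00070). Polb, the polymerase that fills the gap, was not called on its brightest probe set (0.14 ± 0.14, adjusted p = 0.44) and had a call on 1434229_a_at, with 9.04, 8.71, 9.08 and 9.21 in wild type and 10.35, 10.22, 10.07 and 10.13 in dnBrg1 samples. The groups on this probe set did not overlap, and it was 2.27-fold higher (log2 fold change 1.18 ± 0.13, adjusted p = 0.00012). The third probe set of Polb, the dimmest, was not called (-0.57, adjusted p = 0.094).

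Ogg1, the glycosylase for oxidised guanine, was not called on its own probe set (0.04 ± 0.12) but fell on 1448815_at (log2 fold change -0.78 ± 0.16, adjusted p = 0.0033), where the groups did not overlap. Lig3, the ligase that works with Xrcc1, was not called on 4 of its 5 probe sets, with log2 fold changes from -0.39 to 0.48, and fell on 1423419_at (log2 fold change -0.46 ± 0.14, adjusted p = 0.028). That call of Lig3 was lost when wild type 2, wild type 4, dnBrg1 1, dnBrg1 3 or dnBrg1 4 was left out (log2 fold change as small as -0.34, adjusted p up to 0.074). Xrcc1, the scaffold of single-strand break repair, had a log2 fold change of -0.68 ± 0.25 and just missed the threshold (adjusted p = 0.054), and was called lower without wild type 3 (-0.91, adjusted p = 0.0041, within 0.0041 to 0.22 over the alternatives). With the control difference as a covariate Xrcc1 had the opposite sign and was not called (0.89, adjusted p = 0.051). The uracil glycosylase Ung (-0.37 ± 0.17, adjusted p = 0.11) and the replicative ligase Lig1 (-0.22 ± 0.13, adjusted p = 0.22) were not called. Of 9 further genes of this pathway, 1 was higher and 2 were lower (11.1% and 22.2%, next to 17.5% and 23.3% of all genes). Mbd4 (0.71 ± 0.24), a glycosylase for deaminated methylcytosine, rose. The poly(ADP-ribose) polymerase Parp3 (-1.09 ± 0.22) and the alkylation glycosylase Mpg (-0.81 ± 0.15) fell. The call of Mbd4 was lost without dnBrg1 2, 3 or 4 (adjusted p up to 0.10).

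For mismatch repair the array data covered 2 of the 35 genes. Pms2, a subunit of the MutLα endonuclease, read 9.04, 9.16, 8.65 and 8.23 in wild type and 7.78, 7.83, 8.0 and 7.84 in dnBrg1 samples (1423539_at). All wild type samples were above the dnBrg1 samples and were spread more widely. Pms2 was 1.87-fold lower (log2 fold change -0.90 ± 0.19, adjusted p = 0.0046). Msh6, a mismatch sensor, had a log2 fold change of 0.52 ± 0.21 in the other direction and was not called (adjusted p = 0.074). It was called higher without wild type 3 (0.74, adjusted p = 0.0023, within 0.0023 to 0.32 over the alternatives). With the control difference as a covariate Msh6 had the opposite sign and was not called (-0.58, adjusted p = 0.32). Msh3, a sensor of larger loops, was higher (0.60 ± 0.12, adjusted p = 0.0029), as the only called gene of 3 further genes of this pathway.

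No gene of end joining was called by limma, and none had an unadjusted p under 0.05 by limma or by the methods' t-test. The Ku subunits Xrcc6 (Ku70) and Xrcc5 (Ku80), which bind broken ends, had log2 fold changes of 0.05 ± 0.12 (adjusted p = 0.77) and -0.27 ± 0.13 (adjusted p = 0.14), and Prkdc, the kinase that joins them, had -0.16 ± 0.15 (adjusted p = 0.43). The groups overlapped for all 3. Of 4 further genes, the gap-filling polymerase gene Poll fell (-0.54 ± 0.12, adjusted p = 0.0054) and the others were not called.

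In homologous recombination, Blm and Nbn were higher, Rpa1 and Rad54l were lower and 5 of 9 genes were not called. The higher and the lower genes are 22.2% each, next to 17.5% and 23.3% of all genes. Blm, the helicase that dissolves crossed strands, read 7.38, 7.68, 7.65 and 7.58 in wild type and 8.34, 8.40, 8.67 and 8.05 in dnBrg1 samples (1448953_at). All dnBrg1 samples lay above all wild type samples, with dnBrg1 4 the nearest. Blm was 1.73-fold higher (log2 fold change 0.79 ± 0.14, adjusted p = 0.0019), while Wrn, a helicase of the same family, was not called on any of 3 probe sets (-0.25, -0.23 and 0.31). Rpa1, the large subunit of the protein that coats single-stranded DNA, read 12.44, 12.83, 11.76 and 12.68 in wild type and 11.67, 11.57, 11.75 and 11.60 in dnBrg1 samples (1437309_a_at). Wild type 3 was only just above the highest dnBrg1 sample, and the other wild type samples were well above. Rpa1 was 1.72-fold lower (log2 fold change -0.78 ± 0.21, adjusted p = 0.015), and its dimmer probe set was not called (0.12 ± 0.10, adjusted p = 0.37). The small subunit gene Rpa3 was higher (0.59 ± 0.13) and that of the middle subunit, Rpa2, was not called (0.18 ± 0.17, adjusted p = 0.42).

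Rad54l, a motor protein that helps the search for the matching strand, read 7.59, 8.0, 7.67 and 7.76 in wild type and 7.41, 7.26, 7.33 and 7.10 in dnBrg1 samples (1423124_x_at). The groups did not overlap, and Rad54l was 1.40-fold lower (log2 fold change -0.48 ± 0.12, adjusted p = 0.011). A further probe set, 1423123_at, gave a like value (log2 fold change -0.45 ± 0.14, adjusted p = 0.033), though its call was lost without wild type 2, wild type 4, dnBrg1 2 or dnBrg1 4 (log2 fold change as small as -0.32, adjusted p up to 0.076). The remaining probe set of Rad54l had the opposite sign and was not called (0.43, adjusted p = 0.095). Rad54l is the only gene of the 35 with more than 1 probe set called and all of those calls in the same direction.

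The complex of Mre11, Rad50 and Nbn holds broken ends and recruits Atm. Nbn, its signalling subunit, read 8.54, 8.32, 8.86 and 8.84 in wild type and 9.19, 9.09, 9.28 and 8.98 in dnBrg1 samples (1448746_at). The groups did not overlap, with dnBrg1 4 and wild type 3 closest to each other. Nbn was 1.41-fold higher (log2 fold change 0.50 ± 0.14, adjusted p = 0.020), and the call was lost without wild type 1, dnBrg1 1 or dnBrg1 3 (log2 fold change 0.46, 0.48 and 0.45, adjusted p up to 0.057). Rad50 (0.10 ± 0.27, adjusted p = 0.80) and Mre11 (0.08 ± 0.21, adjusted p = 0.78), the core of the complex, were not called on these probe sets. The dimmer probe set of Rad50, 1425939_at, was not called either (-0.37 ± 0.14, adjusted p = 0.064). With the control difference as a covariate Mre11 was called higher (1.25, adjusted p = 0.038, within 0.038 to 0.97 over the alternatives), as was Rad50 on its brightest probe set (1.67, adjusted p = 0.033, within 0.033 to 0.97). Brca1, which steers breaks into recombination, was not called on any of 4 probe sets, with log2 fold changes from -0.36 to 0.71 and standard errors from 0.20 to 0.32. Without wild type 3, 3 of these were called, in both directions: 1424629_at lower (-0.60, adjusted p = 0.033, within 0.033 to 0.61 over the alternatives), 1424630_a_at higher (0.78, adjusted p = 0.031, within 0.031 to 0.47) and 1451417_at higher (adjusted p within 0.035 to 0.67), the last also without wild type 4 (0.95). Brca2, a mediator of strand exchange (-0.22 ± 0.22, adjusted p = 0.46), and the annealing protein gene Rad52 (-0.34 ± 0.13, adjusted p = 0.057) were not called. Rad52 lay just above the threshold, and the groups overlapped.

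Of 17 further recombination genes 2 were higher, 7 were lower and 8 were not called. These are 11.8% higher and 41.2% lower, next to 17.5% and 23.3% of all genes. Over their 34 probe sets, 10 were higher and 10 lower (29.4% each), next to 19.8% and 21.0% of all probe sets. Mus81, a nuclease that cuts branched DNA, fell (-1.67 ± 0.20, adjusted p = 0.00023), and its partner Eme1 was not called (-0.42 ± 0.22, adjusted p = 0.16). Of the Smc5/6 complex, which clears joined chromosomes, Nsmce1 (-1.36 ± 0.10) and Smc6 (-0.93 ± 0.22) fell on their own probe sets. Smc5 missed the threshold narrowly (-0.58 ± 0.21, adjusted p = 0.052). Each of these genes also had a further probe set called higher. Rad51b, a recombination mediator, rose (1.34 ± 0.23, adjusted p = 0.0016) on a dim probe set, with a mean log2 intensity of 4.05 in wild type.

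Among the checkpoint genes the upstream kinase gene Atm was higher and Chek2, the kinase that Atm activates, was lower. Atm read 5.62, 6.60, 5.74 and 6.30 in wild type and 7.20, 7.40, 6.95 and 7.38 in dnBrg1 samples (1421205_at). Every dnBrg1 sample was above every wild type sample, and wild type 2 was the nearest. Atm was 2.25-fold higher (log2 fold change 1.17 ± 0.22, adjusted p = 0.0024). Chek2 read 8.01, 8.53, 7.99 and 8.62 in wild type and 7.25, 7.25, 7.48 and 7.22 in dnBrg1 samples (1422747_at). The dnBrg1 samples 1, 2 and 4 were nearly equal, dnBrg1 3 was the highest of the group, and all 4 lay below wild type. Chek2 was 1.98-fold lower (log2 fold change -0.99 ± 0.16, adjusted p = 0.0013).

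Trp53bp1, which gathers at breaks and favours end joining, read 11.83, 11.95, 11.67 and 11.89 in wild type and 11.55, 11.53, 11.53 and 11.49 in dnBrg1 samples (1426956_a_at). The groups did not overlap but were close, with wild type 3 nearest to the dnBrg1 samples. It was 1.24-fold lower (log2 fold change -0.31 ± 0.10, adjusted p = 0.029). The call held without wild type 3 and was lost when any of the other 7 samples was left out (log2 fold change -0.27 to -0.36 over all 8, adjusted p up to 0.073), and the dimmer probe set was not called (log2 fold change -0.0017 ± 0.15, adjusted p = 0.99). Atr, the kinase for stalled replication, was not called (-0.15 ± 0.12, adjusted p = 0.36). Chek1, the kinase that Atr activates, was not called on 3 of its 4 probe sets (-0.38, -0.36 and -0.04) and was called higher on 1450677_at with overlapping groups (log2 fold change 0.57 ± 0.18, adjusted p = 0.034). That call of Chek1 was lost without wild type 2, wild type 4, dnBrg1 1, dnBrg1 2 or dnBrg1 3 (log2 fold change as small as 0.47, adjusted p up to 0.090). The brightest probe set of Chek1, 1449708_s_at, and 1420032_at were called lower without wild type 3 (-0.50, adjusted p = 0.0091, and -0.47, adjusted p = 0.017) and also without dnBrg1 3, with adjusted p within 0.0091 to 0.76 and 0.017 to 0.84 over the alternatives, so the direction of Chek1 depended on the probe set.

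Of 18 further checkpoint genes 8 were higher, 1 was lower and 9 were not called, a share of 44.4% higher next to 17.5% of all genes. The list was chosen with earlier results of these data known, and the lists of the other pathways held between 0 and 33.3% higher genes. H2ax, the histone variant that Atm phosphorylates around a break, was higher (1.64 ± 0.15, adjusted p = 5.5e-05). Mapkapk2, a stress kinase with a role in checkpoint control, also rose (1.28 ± 0.18, adjusted p = 0.00045). Babam1 (1.19 ± 0.13), Brcc3 (1.08 ± 0.13) and Uimc1 (0.66 ± 0.20), subunits of the complex that brings Brca1 to ubiquitin near breaks, were higher on their own probe sets. A further probe set of Brcc3 was called lower, and Brca1 itself was not called. Wee1, a kinase that restrains entry into mitosis, was the gene that fell (-0.49 ± 0.11, adjusted p = 0.0058), though a further probe set of it was called higher. Rad9a (-0.13), Rad1 (0.43) and Hus1 (-0.02), which form the clamp that activates Atr, were not called.

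Fanconi anaemia genes, which repair crosslinks between strands, were 2 higher, 4 lower and 2 not called of 8. These are 25% higher and 50% lower, next to 17.5% and 23.3% of all genes. Fancf had the largest change of the 83 measured genes of the wider list (-1.95 ± 0.11, adjusted p = 9.7e-06). Fanca (-1.14 ± 0.20) and the translocase gene Fancm (-0.89 ± 0.23) were lower as well, whereas Fance (1.47 ± 0.26) and Fancc (0.85 ± 0.25) were higher. Subunits of the same core complex thus went in opposite directions on these probe sets. Fance was dim, with mean log2 intensities of 4.04 in wild type and 5.50 in dnBrg1 samples, next to a median of 7.69 over all probe sets. The groups of Fancc overlapped, and its call was lost without wild type 2, wild type 4 or dnBrg1 3 (adjusted p up to 0.063). Of 12 genes of damage tolerance and direct reversal, 2 were higher and 4 lower (16.7% and 33.3%). Ube2a (0.81 ± 0.14), which ubiquitinates the replication clamp, and the translesion polymerase gene Rev1 (0.77 ± 0.14) rose. The translesion polymerase genes Polh (-0.93 ± 0.20) and Poli (-0.47 ± 0.16) and the deubiquitinase gene Usp1 (-0.40 ± 0.11) fell, though a further probe set of Usp1 was called higher. The call of Poli was lost in 6 of the 8 fits that left out a sample, those without wild type 1, 3 or 4 or dnBrg1 1, 3 or 4 (adjusted p up to 0.12). In all, 20 of the 83 genes were higher and 23 were lower (24.1% and 27.7%, median log2 fold change -0.09). Among all genes 17.5% were higher and 23.3% lower, with a median log2 fold change of -0.11. Over the 141 probe sets of these 83 genes, 43 were higher and 32 lower (30.5% and 22.7%). Of all probe sets 19.8% were higher and 21.0% lower. With the mean over a gene's probe sets, 21 genes were higher and 14 lower, so the balance depended on the probe set read. The other 31 of the 114 listed genes were not analysed here.

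Which probe set was read often decided what a gene showed. Of the 35 genes, 16 had more than 1 probe set, and in 14 of these (87.5%) the log2 fold changes differed in sign, next to 53.8% of the 4956 such genes on the array. Of the 16 genes, 7 had 2 probe sets and 9 had more, and the shares were not adjusted for this number. Probe sets of Ercc4 and Parp1 were called in opposite directions, or 2 of 16 genes (12.5%), next to 13.8% of all 4956. The other probe set of Ercc4, 1432272_a_at, read 4.08, 4.07, 4.11 and 4.32 in wild type and 6.02, 5.25, 5.20 and 6.03 in dnBrg1 samples. The wild type values were dim, dnBrg1 1 and 4 were above dnBrg1 2 and 3, and the groups did not overlap. On this probe set Ercc4 was 2.79-fold higher (log2 fold change 1.48 ± 0.21, adjusted p = 0.00048), against the 3.09-fold decrease on the brighter probe set. In the wider list, Ddb2, Gtf2h4, Xab2, Smc6, Nsmce1, Brcc3, Wee1 and Usp1, described above by their own probe set, also had a further probe set called the other way, and Rpa2 and Smc5 were called higher on a further probe set (1.88 and 0.98). Of the 16 genes, apart from Ercc4, Parp1 and Rad54l, 9 had exactly 1 probe set called, and Brca1, Rad50, Rad52 and Wrn had none. Probe sets ending in _a_at match several transcripts of a gene and those ending in _s_at or _x_at can match other genes too, and where each lies along its transcript was not analysed here.

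**Figure D2:**
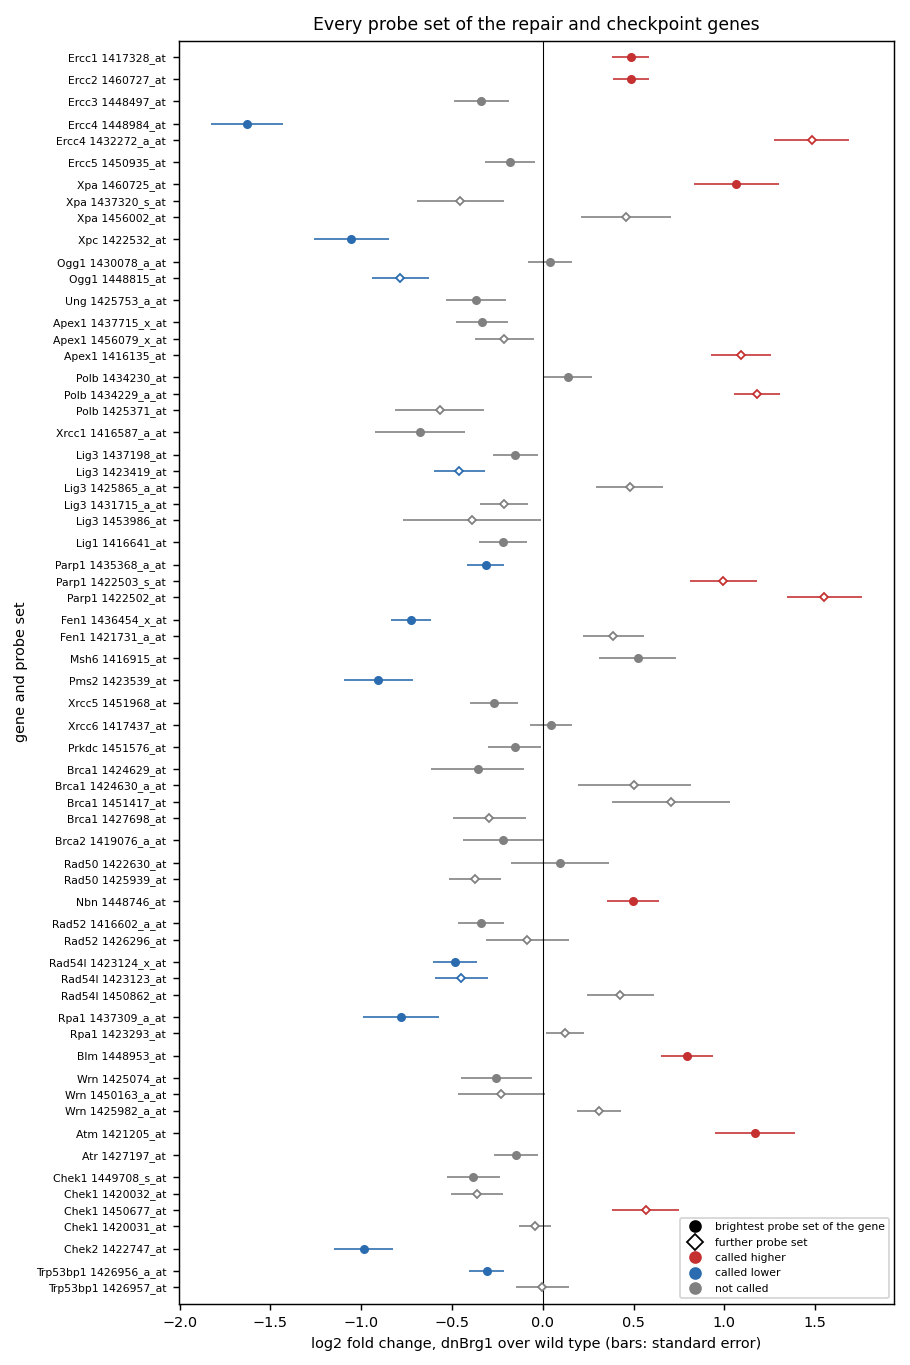
Log2 fold change (dnBrg1 over wild type) of each of the 64 probe sets with its standard error as a bar, where filled circles are the brightest probe set of a gene, open diamonds its further probe sets, and colours give the call (red higher, blue lower, grey not called). The 12 higher and 12 lower probe sets include both directions for Ercc4 and Parp1.

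**Figure D3:**
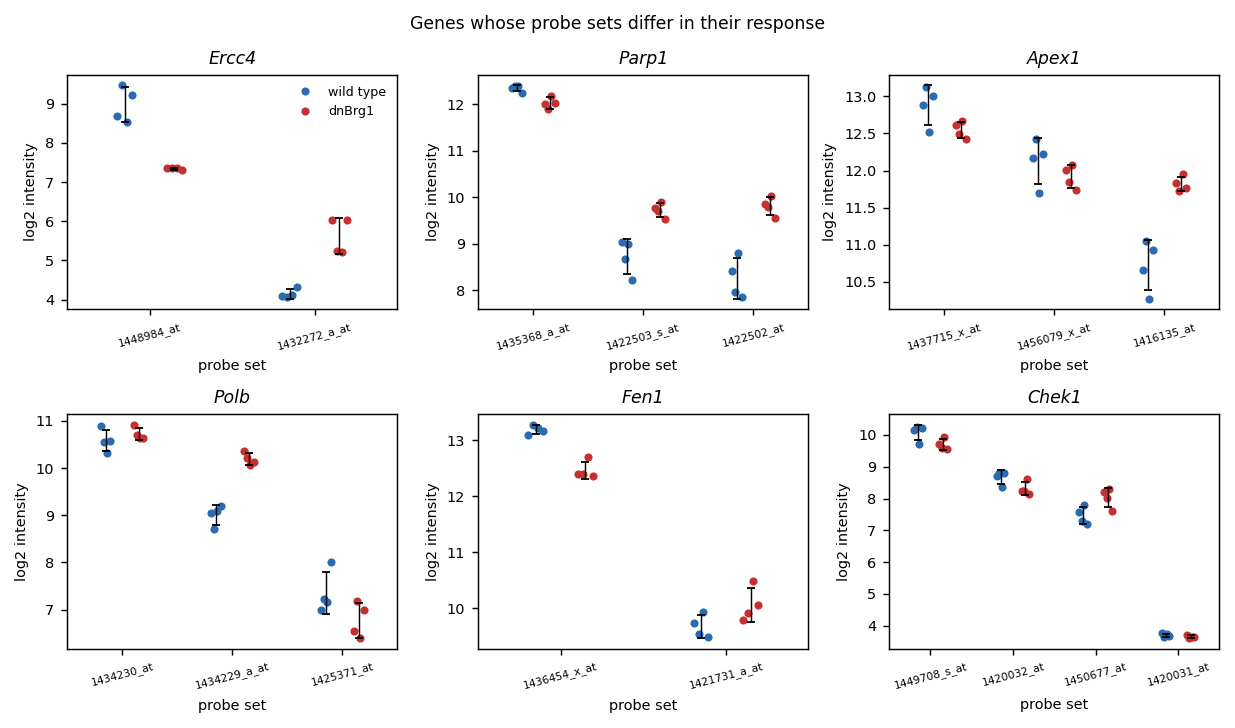
Log2 intensity of single wild type (blue) and dnBrg1 (red) samples on every probe set of 6 genes, with mean and SD (n = 4) as bars and a separate axis for each gene. For Ercc4 and Parp1 the dnBrg1 points lie below wild type on the brightest probe set and above it on the dimmer ones, and for Apex1 and Polb the groups separate on a dimmer probe set alone.

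Wild type samples varied more than dnBrg1 samples. The wild type SD was the larger in 50 of the 64 probe sets (78.1%), next to 70.1% of all probe sets, with median SDs of 0.264 in wild type and 0.139 in dnBrg1. Wild type 3, which had the smallest control difference of its group, was the wild type sample nearest to the dnBrg1 mean in 11 of the 24 called probe sets (45.8%), next to 50.4% of all called probe sets. Without wild type 3 the number of lower genes rose from 9 to 14 and that of lower probe sets from 12 to 19, while higher genes went from 6 to 7. None of the 24 calls was lost without it, and 12 probe sets gained a call, 7 lower (Ercc3, Xrcc1, 2 of Apex1, 2 of Chek1 and 1 of Brca1) and 5 higher (Msh6, 2 of Brca1, and 1 each of Lig3 and Wrn).

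With the 3' to 5' control difference as a covariate, 2 of the 24 called probe sets stayed called in the same direction, that of Atm (log2 fold change 2.29, adjusted p = 0.017, within 0.00064 to 0.021 over the alternatives) and 1416135_at of Apex1 (1.99, adjusted p = 0.012, within 0.00016 to 0.015). The covariate nearly follows the groups, with a median standard error that grew from 0.158 to 0.300. Across the array 1090 of 9229 calls (11.8%) stayed, and 3.57% of all probe sets were called higher and 2.80% lower, next to 6 and 0 of the 64 by limma (12 and 4 at an unadjusted p under 0.05). The signs of 7 of the 24 turned, among them those of Xpa (-0.17), Xpc (0.11), Rpa1 (0.44) and Nbn (-0.01). Ercc4 on its brightest probe set went from -1.63 to -0.47, Chek2 from -0.99 to -0.25 and Pms2 from -0.90 to -0.59, whereas Fen1 (-0.65), Blm (0.87) and Ercc4 on 1432272_a_at (1.5) kept their size but not their call. The probe sets called higher only with the covariate were 1453986_at of Lig3 (1.92), 1422630_at of Rad50 (1.67), 1424629_at of Brca1 (1.19) and 1426957_at of Trp53bp1 (0.83). In the wider list H2ax (1.89), Fancf (-1.77), Nsmce1 (-1.44), Gtf2h4 (-1.87), Uimc1 (1.79) and Poli (-1.25) kept their calls, 6 of 43, and Mre11 and Fancl (1.99) were called higher only with the covariate. Since the control difference does not overlap between the groups, what either contributes to the 24 calls cannot be told apart. This holds for the 2 that stayed called as well.

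**Figure D4:**
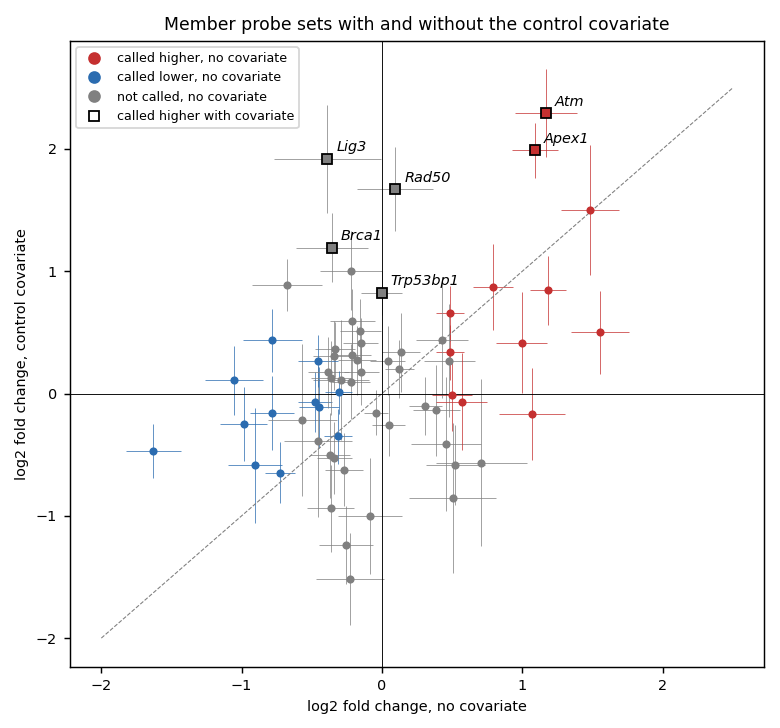
Log2 fold change of each of the 64 probe sets without (horizontal axis) and with (vertical axis) the 3' to 5' control difference as a covariate, with standard errors as bars and the line of equal values dashed, where colours give the call without the covariate and squares mark the 6 probe sets called higher with it. Most lower calls move toward 0, and no probe set is called lower with the covariate.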

How the data were processed

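Whole lens RNA of 4 wild type and 4 dnBrg1 samples (E15.5) was amplified from 50 ng per array. The authors processed the scans with robust multichip average (RMA), and the values they deposited are linear intensities, converted here to log2. RMA equalises the arrays, which hides any shift common to most transcripts. Groups follow the genotype given for each sample, and 0 columns belong to no sample. Of 22690 probe sets, 64 controls were set aside and 22626 were fitted with limma 3.58.1 in R 4.3.3 (lmFit and eBayes, dnBrg1 minus wild type, no filter, no covariate) with calls at an adjusted p (Benjamini-Hochberg) of 0.05. The p-values measure the spread between these samples, and their number limits the precision. The fit was tested on simulated data with independent noise and few changed probe sets. These held no 3' to 5' difference between the groups, so that test does not bear on calls made under this difference.

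The members, lists and tests were chosen with earlier results of these data known. All 35 members were named. Values in every sample were given for members called on their own probe set without overlap and for those called in opposite directions, and up to 3 called genes in each direction per pathway of the wider list, with Mre11 (Mre11a on the array), were named. Mnat1, Ddb1, Ddb2, Fancl, Csf1r, Rpa2, Eme1, Smc5, Brcc3, Uimc1, Rad9a, Rad1 and Hus1, and probe sets of members outside this rule whose values are given sample by sample (Apex1 and Polb), were chosen after their values were seen. Promoters are RefSeq sequences of GRCm38.p6. The alternatives were both scalings of the arrays, 16 added before log2, bright probe sets alone, another variance model, weighted arrays, leaving out each sample, the described RNA, the control 3' to 5' difference, a replicate block, the mean over a gene's probe sets and the methods' t-test. Other experiments of the study were not analysed here.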

Additional observations from a re-analysis of the deposited data

Results flagged for a closer look

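Of 128 groups of 4 samples (64 probe sets in wild type and in dnBrg1), 7 held a highest or lowest sample far from the others by Dixon's criterion, and chance gives about 1 in 20 such groups. The criterion is the gap to the nearest sample divided by the whole range of the group.

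Wild type 2 was low for Xpa on 1460725_at, with a log2 intensity of 6.84 while the others lay between 7.90 and 7.97 (ratio 0.941). Wild type 3 was low for Chek1 on 1449708_s_at, with 9.73 against 10.15 to 10.24 (ratio 0.840), and high for Xrcc5 on 1451968_at, with 10.06 against 9.74 to 9.79 (ratio 0.838). The dnBrg1 3 sample was high for Fen1 on 1436454_x_at, with 12.69 against 12.37 to 12.40 (ratio 0.891), and for Chek2 on 1422747_at, with 7.48 against 7.22 to 7.25 (ratio 0.853). Lig3 had a high dnBrg1 2 on 1431715_a_at, with 4.33 against 3.96 to 4.02 (ratio 0.8293), and a high dnBrg1 4 on 1453986_at, with 3.34 against 3.24 to 3.25 (ratio 0.847).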

How the results depend on the processing

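The counts of called genes kept within 1.5 times of 6 higher and 9 lower genes, and of 12 higher and 12 lower probe sets, under both scalings, the added constant of 16, the variance model and the methods' t-test with Benjamini-Hochberg adjustment, and scaling moved the median of all probe sets by at most 0.05. The methods' t-test called 6 higher and 11 lower genes at an unadjusted p under 0.05, and 6 and 9 after Benjamini-Hochberg adjustment. Array weights gave 14 lower genes. With 1 sample left out, the 35 genes had 5 to 7 higher and 7 to 14 lower, their probe sets 10 to 17 and 8 to 19, the wider list 15 to 22 and 19 to 28, and all probe sets 3924 to 4978 and 3776 to 5194. The highest counts came without wild type 3. With only dnBrg1 1 and 2, 3 genes were higher and 5 lower, 6 probe sets were lower, 10 genes of the wider list were lower and 2600 of all probe sets were lower. With the described RNA as a covariate, 7 of the 64 probe sets and 3114 of all were lower. With the mean over a gene's probe sets, 6 genes were higher and 4 lower, and 21 and 14 of the wider list. The cause was not tested.

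The control end difference, entered as a covariate, left 6 higher and 0 lower probe sets, 3 higher and 0 lower genes, 4 and 4 of the wider list, and 808 and 634 of all probe sets. Among probe sets called in either fit, its log2 fold changes turned sign for Xpa on 1460725_at (-0.17), Xpc (0.11), Lig3 on 1423419_at (0.26) and 1453986_at (1.92), Brca1 on 1424629_at (1.19), Nbn (-0.013), Rpa1 on 1437309_a_at (0.44), Chek1 on 1450677_at (-0.068), Trp53bp1 on 1426956_a_at (0.0091) and 1426957_at (0.83), Fancc (-0.58), Fancm (0.43), Smc6 (0.38) and Xab2 (0.26). Some called in neither fit, such as Xrcc1 (0.89) and Apex1 on 1437715_x_at (0.36) and 1456079_x_at (0.59), turned sign too.

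Same-numbered samples showed little common deviation (correlations -0.187, -0.0135, -0.0538 and 0.157). Only wild type 4 had the dnBrg1 sample of its own number as the closest. So few correlations cannot exclude that the numbers pair the samples. With the replicate block, 13 probe sets were higher and 11 lower, 7 genes were higher and 8 lower, 19 and 20 of the wider list, and 4064 and 3899 of all, and 21 of the 24 calls stayed.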
